A study of Mus musculus with 278 samples.

Results

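The genes described here encode the nuclear-encoded subunits of the mitochondrial respiratory chain and of ATP synthase. They were chosen by symbol: names that begin with Nduf and a letter of a, b, c, s or v before a number, Sdha to Sdhd, names that begin with Uqcr, Cox4 to Cox8 names with a letter after the number, and names that begin with Atp5. This rule took 84 of the 23354 genes of the matrix: 37 of complex I, 4 of complex II, 8 of complex III, 18 of complex IV and 17 of complex V. The values are FPKM, which count fragments relative to transcript length and to the mapped total of each cell, so levels of different genes are compared per length. A gene was tested where 10% of cells or more had an FPKM of 1 or more, which 78 of the 84 did, as did 10452 genes in all. The rule reads names and not function. It leaves out subunits of the mitochondrial genome, Cyc1 of complex III and Ndufab1 of complex I, and it takes in Atp5sl, now named Dmac2, which is known as an assembly factor of complex I.

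Each of the 278 samples was 1 spermatogonium from an Id4-EGFP reporter mouse at postnatal day 6; Id4 is a gene known from spermatogonial stem cells. Testes of at least 2 pups were pooled for a preparation. EGFP-positive cells were sorted, captured on a Fluidigm C1 chip, imaged, and placed in quartiles of EGFP brightness. The quartiles Q1 (brightest), Q2, Q3 and Q4 (dimmest) held 74, 70, 74 and 60 cells, from 5 preparations of 26, 62, 37, 75 and 78 cells. The design names 5 replicate preparations, and cells were assigned to them by the Seq number in their titles, which is an inference. The design also defines Q4 as the dim quartile, while the protocol text calls the lower quartile Q2; the design was followed. All animals were untreated, all cells were EGFP-positive, and no wild type or EGFP-negative cells were part of the comparison. The labels name the reporter but not its construct or the strain. Cells of a preparation share a suspension, so the preparation was the unit of replication (n = 5), and values below are means over cells of a preparation with the SD over 5 preparations unless stated otherwise. The labels do not say whether the preparations came from separate litters, so that spread may in part be technical.

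The respiratory chain passes electrons from NADH through complex I, or from succinate through complex II, to ubiquinone, then through complex III and cytochrome c to complex IV, where oxygen is reduced. Complexes I, III and IV pump protons across the inner mitochondrial membrane, and ATP synthase (complex V) uses the return of protons to make ATP. Several subunits of complex IV, cytochrome c and the ADP/ATP carrier have isoforms that are enriched in adult mammals in testis, heart and muscle, or lung. Mitochondria and the balance of glycolysis and respiration are known to differ among male germ cell stages.

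Cells had 2569 to 7706 genes at an FPKM of at least 1, and depth, estimated from the smallest steps between low values, had a median of 623686 mapped fragments per cell when transcript lengths were left uncorrected for fragment length, and 699688 with an assumed fragment length of 300 bases. Preparation 3 stood apart, with a mean of 4437 detected genes where the other 4 had 5875 to 7148. The number detected was 561 ± 379 higher in Q1 than in Q4, and higher in 5 of 5 preparations. All 8 spermatogonium markers were detected in at least 10% of cells. Of markers of other cells, 0 of 8 Sertoli genes, 1 of 6 Leydig genes, 1 of 6 peritubular myoid genes, 1 of 6 endothelial genes, 1 of 5 macrophage genes and 0 of 4 erythroid genes reached that share. Summed Sertoli markers lay between 0.121 and 1.82 FPKM in Q1 and between 0.0757 and 4.58 FPKM in Q4, against 3500 to 3759 FPKM and 3129 to 3796 FPKM for the spermatogonium markers. Peritubular myoid sums were 10.8 to 19.8 FPKM in Q1 and 1.05 to 18.1 FPKM in Q4, and endothelial sums 1.096 to 4.22 FPKM in Q1 and 0.394 to 23.8 FPKM in Q4. Macrophage sums were at most 10.96 FPKM in Q1 and 7.75 FPKM in Q4, Leydig sums at most 2.95 FPKM in Q1 and 2.12 FPKM in Q4, and erythroid sums at most 8.199 FPKM in Q1 and 0.241 FPKM in Q4. Macrophage sums reached 24.3 FPKM in Q2. Of the Leydig list, 5 of 6 genes were listed at 0 in every cell.

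The isoforms are described first, with the sequences that distinguish them. Cox7b2 and Cox7b encode alternative forms of subunit VIIb of cytochrome c oxidase, and Cox7b2 is known as the testis form. The pair is shown whole because the listed value of the testis form was the higher. The coding sequences come from GENCODE M21 transcripts (GRCm38). Cox7b2 lies at chr5:71442824-71548205 on the minus strand and Cox7b at chrX:106015700-106022450 on the plus strand. Capitals mark bases that differ between them in a global alignment.
Cox7b2: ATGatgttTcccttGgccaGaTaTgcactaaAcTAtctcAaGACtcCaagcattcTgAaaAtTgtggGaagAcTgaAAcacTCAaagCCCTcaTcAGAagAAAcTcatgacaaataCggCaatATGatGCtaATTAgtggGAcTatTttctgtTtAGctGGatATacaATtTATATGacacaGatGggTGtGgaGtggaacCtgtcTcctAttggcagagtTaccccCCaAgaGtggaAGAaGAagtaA
Cox7b: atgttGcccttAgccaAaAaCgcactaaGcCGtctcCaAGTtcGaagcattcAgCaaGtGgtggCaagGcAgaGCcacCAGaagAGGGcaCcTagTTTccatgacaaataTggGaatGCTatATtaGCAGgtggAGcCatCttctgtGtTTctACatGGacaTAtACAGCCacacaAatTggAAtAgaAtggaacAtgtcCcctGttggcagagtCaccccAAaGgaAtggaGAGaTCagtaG
The pair had 63.9% identity over 249 aligned columns, with 6 gap columns. By the same measure Cox8c and Cox8a had 45.7%, Cox6b2 and Cox6b1 49.4%, and Slc25a31 and Slc25a5 61.3%. Cox7b2 had no other annotated gene with at least 95% identity over at least 80% of its coding length. Cox7b had 2 such genes, and reads shared with them may have been split by the quantifier, so its value and the share of the pair are uncertain.

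Cox7b2 averaged 531, 422, 533, 569 and 545 FPKM in preparations 1 to 5, against 161, 136, 203, 166 and 162 FPKM for Cox7b. The lowest Cox7b2 mean was above the highest Cox7b mean. Over preparations Cox7b2 averaged 520 ± 56.9 FPKM and Cox7b 166 ± 24.01 FPKM (SD, n = 5). Cox7b2 made up 75.8 ± 2.04% of the sum of the pair, from 72.4% to 77.4%, and was the higher of the pair in 248 of 278 cells. From Q1 to Q4 this share was 75.2 ± 4.74%, 76.7 ± 4.24%, 73.6 ± 2.52% and 77.3 ± 1.85%. The gap between Q3 and Q4 exceeded both of their SDs, and the share was not tested between quartiles. Cox7b2 was detected in 273 cells and Cox7b in 276, with 272 cells holding both.

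The other testis forms of complex IV were minor. Cox8c, a form of the smallest subunit, averaged 28.8, 30.0, 60.2, 80.6 and 44.5 FPKM in preparations 1 to 5, against 451 to 679 FPKM for Cox8a. It made up 7.75 ± 3.36% of that pair and was detected in 150 cells, 53.96% of them all. Cox6b2, a form of the subunit that faces the intermembrane space, averaged 7.18, 16.3, 6.15, 26.1 and 15.4 FPKM, against 693 to 972 FPKM for Cox6b1. It made up 1.72 ± 0.80% and was detected in 123 cells. Preparation 4 had the highest mean of both, and the order of the other preparations differed between them. Both were detected in 66 cells, Cox8c alone in 84, Cox6b2 alone in 57 and neither in 71. At this depth a cell without a detected value may still hold the transcript.

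Outside the complexes, the carriers that feed and serve them had testis forms at high levels. Slc25a31, the ADP/ATP carrier of male germ cells, averaged 324 ± 22.8 FPKM, against 389 ± 36.7 FPKM for the general carrier Slc25a5. Slc25a31 was 45.5 ± 2.77% of that sum and the higher of the pair in 118 of 278 cells. Slc25a5 has 2 near-identical annotated genes, so its value and the shares taken against it are uncertain. Cyct, the testis cytochrome c, averaged 265 ± 38.3 FPKM, against 6.67 ± 1.38 FPKM for the somatic gene Cycs. Cycs has 4 near-identical annotated genes, so its low value is uncertain and the ratio of the pair cannot be read from it. The heart and muscle carrier Slc25a4 averaged 98.9 ± 29.7 FPKM and made up 20.3 ± 5.98% of its sum with Slc25a5.

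Forms known from heart, muscle, lung and hypoxia were mostly near 0. Cox8b was listed at 0 in every cell, Cox4i2 was detected in 1 cell, Cox6a2 in 4 cells and Ndufa4l2 in 8 cells. Their general counterparts Cox8a, Cox4i1, Cox6a1 and Ndufa4 were detected in all 278 cells. Cox7a1, the heart and muscle form of subunit VIIa, was the exception in this group. It averaged 53.5, 57.5, 39.4, 50.4 and 50.5 FPKM in preparations 1 to 5 and was detected in 168 cells, against 331 to 495 FPKM for Cox7a2, so it made up 10.7 ± 2.82% of the pair. The related Cox7a2l, known for joining complexes III and IV in supercomplexes, averaged 164 ± 9.16 FPKM.

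**Figure D1:**
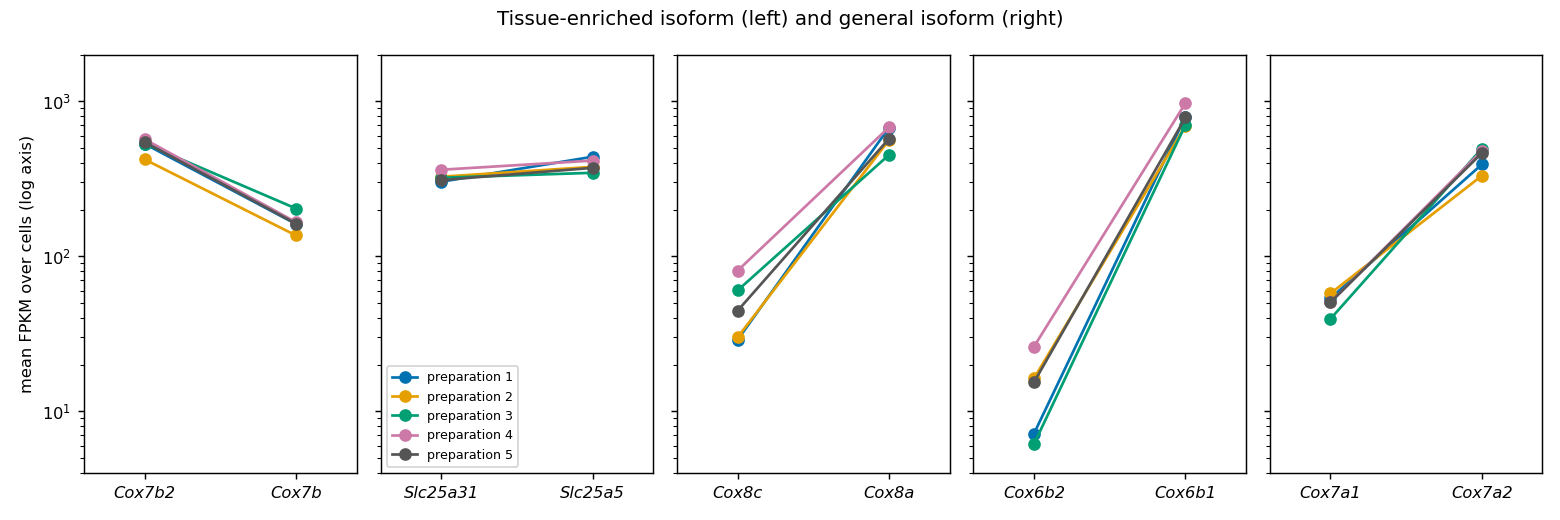
Mean FPKM over the cells of each preparation (log axis) for 5 pairs, with the tissue-enriched isoform on the left and the general isoform on the right, and 1 line for each of 5 preparations. Cox7b2 lies above Cox7b in every preparation, Slc25a31 lies below Slc25a5 but near it, and Cox8c, Cox6b2 and Cox7a1 lie well below their counterparts.

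The subunit c ring of ATP synthase is encoded by Atp5g1, Atp5g2 and Atp5g3, which differ in their leader peptides and encode the same mature protein. Their last 150 coding bases are shown because this is where the products match. Atp5g1 lies at chr11:96068852-96075670, Atp5g2 at chr15:102662864-102672352 and Atp5g3 at chr2:73908447-73911326 (GRCm38, all on the minus strand). Capitals mark differences from Atp5g3 in the first and second line, and from Atp5g1 in the third.
Atp5g1: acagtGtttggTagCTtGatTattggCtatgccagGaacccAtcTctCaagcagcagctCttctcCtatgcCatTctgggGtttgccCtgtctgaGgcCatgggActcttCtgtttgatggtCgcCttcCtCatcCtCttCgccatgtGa
Atp5g2: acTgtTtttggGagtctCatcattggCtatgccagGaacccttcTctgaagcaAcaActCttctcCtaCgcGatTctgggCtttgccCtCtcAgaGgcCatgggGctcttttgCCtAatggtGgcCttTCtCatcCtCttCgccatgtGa
Atp5g3: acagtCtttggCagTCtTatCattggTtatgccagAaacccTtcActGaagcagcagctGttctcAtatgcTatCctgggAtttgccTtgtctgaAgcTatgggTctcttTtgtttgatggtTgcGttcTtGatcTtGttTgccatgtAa
Atp5g1 differed from Atp5g3 at 29 of these 150 bases, Atp5g2 from Atp5g3 at 33, and Atp5g1 from Atp5g2 at 23. None of these differences, 0 in each of the 3 comparisons, changed an encoded residue. Atp5g3 averaged 1132, 793, 665, 865 and 755 FPKM in preparations 1 to 5, and Atp5g1 341, 257, 308, 342 and 280 FPKM. Atp5g3 was therefore above Atp5g1 in every preparation, and both were detected in all 278 cells. Atp5g2 was detected in 1.08% of cells and averaged 0.0246 ± 0.0228 FPKM. It has 2 near-identical annotated genes, so its value may be lowered by shared reads.

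Across the 84 genes, 25 were detected in every cell, 69 in at least 90% of cells, 9 in 10% to 90% and 6 in under 10%. A mean of at least 100 FPKM was reached by 63 genes and one of at least 1000 FPKM by 6. Together they held 6.55 ± 0.50% of the summed FPKM of a cell (SD, n = 5), with single cells between 3.73% and 9.43%. Cells had 55 to 79 of the 84 genes detected, with a median of 75. Preparation 3 had 69.4 on average, against 74.8 to 75.4 in the others. Complex I held 2.59 ± 0.19% of FPKM, complex II 0.180 ± 0.015%, complex III 0.759 ± 0.059%, complex IV 1.74 ± 0.37% and complex V 1.28 ± 0.06%. Here and below genes were placed in complexes by symbol, so Ndufa4 was counted in complex I and Atp5sl in complex V.

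In complex I the leading genes were Ndufb9, an accessory subunit of the membrane arm, with 1415 ± 141 FPKM, and Ndufa4, named for complex I and now assigned to complex IV, with 1264 ± 177 FPKM. The lowest tested gene of the complex was Ndufb4, another membrane arm subunit, at 7.75 ± 2.15 FPKM in 64.03% of cells. It has 1 near-identical annotated gene. Ndufs5 was detected in 5.40% of cells, has 1 such gene too, and was not tested. The median over the 35 tested genes was 272 FPKM. The 7 core subunits, which carry the flavin and iron-sulfur clusters or form the quinone site, ranged from 25.1 FPKM (Ndufs3) to 680 FPKM (Ndufs8), with a median of 212 FPKM.

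The 4 subunits of complex II are succinate dehydrogenase itself. Sdhb, the iron-sulfur subunit, averaged 427 ± 21.2 FPKM, and Sdhd, a membrane anchor, 252 ± 10.0 FPKM. Sdha, the flavoprotein that oxidises succinate, averaged 177, 155, 288, 117 and 138 FPKM in preparations 1 to 5. Sdhc, the other anchor, was lowest at 109 ± 23.7 FPKM. The anchors form a dimer, and in every preparation Sdhd, at 241 to 268 FPKM, was above Sdhc, at 84.2 to 143 FPKM. In complex III, Uqcrh, the hinge protein that binds cytochrome c1, averaged 894 ± 120 FPKM and Uqcrb, which lies at a ubiquinone site, 803 ± 126 FPKM. Uqcrfs1, the Rieske iron-sulfur protein, was lowest at 52.7 ± 6.69 FPKM in 85.6% of cells. Uqcrb has 3 near-identical annotated genes.

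Complex IV held the most abundant transcripts of the whole group. Cox6a1, a nuclear-encoded regulatory subunit, averaged 3167 ± 1872 FPKM and Cox4i1, which is added early in assembly, 2024 ± 118 FPKM. Cox6b2 was the lowest tested gene, at 14.2 ± 8.09 FPKM. In complex V, Atp5c1, the gamma subunit of the rotating stalk, averaged 962 ± 37.6 FPKM and varied least over preparations, with a highest mean 1.11 times the lowest. Atp5e, the epsilon subunit beside it, averaged 855 ± 116 FPKM. Atp5l, subunit g of the membrane part, was lowest at 21.8 ± 3.81 FPKM and has 8 near-identical annotated genes.

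**Figure D2:**
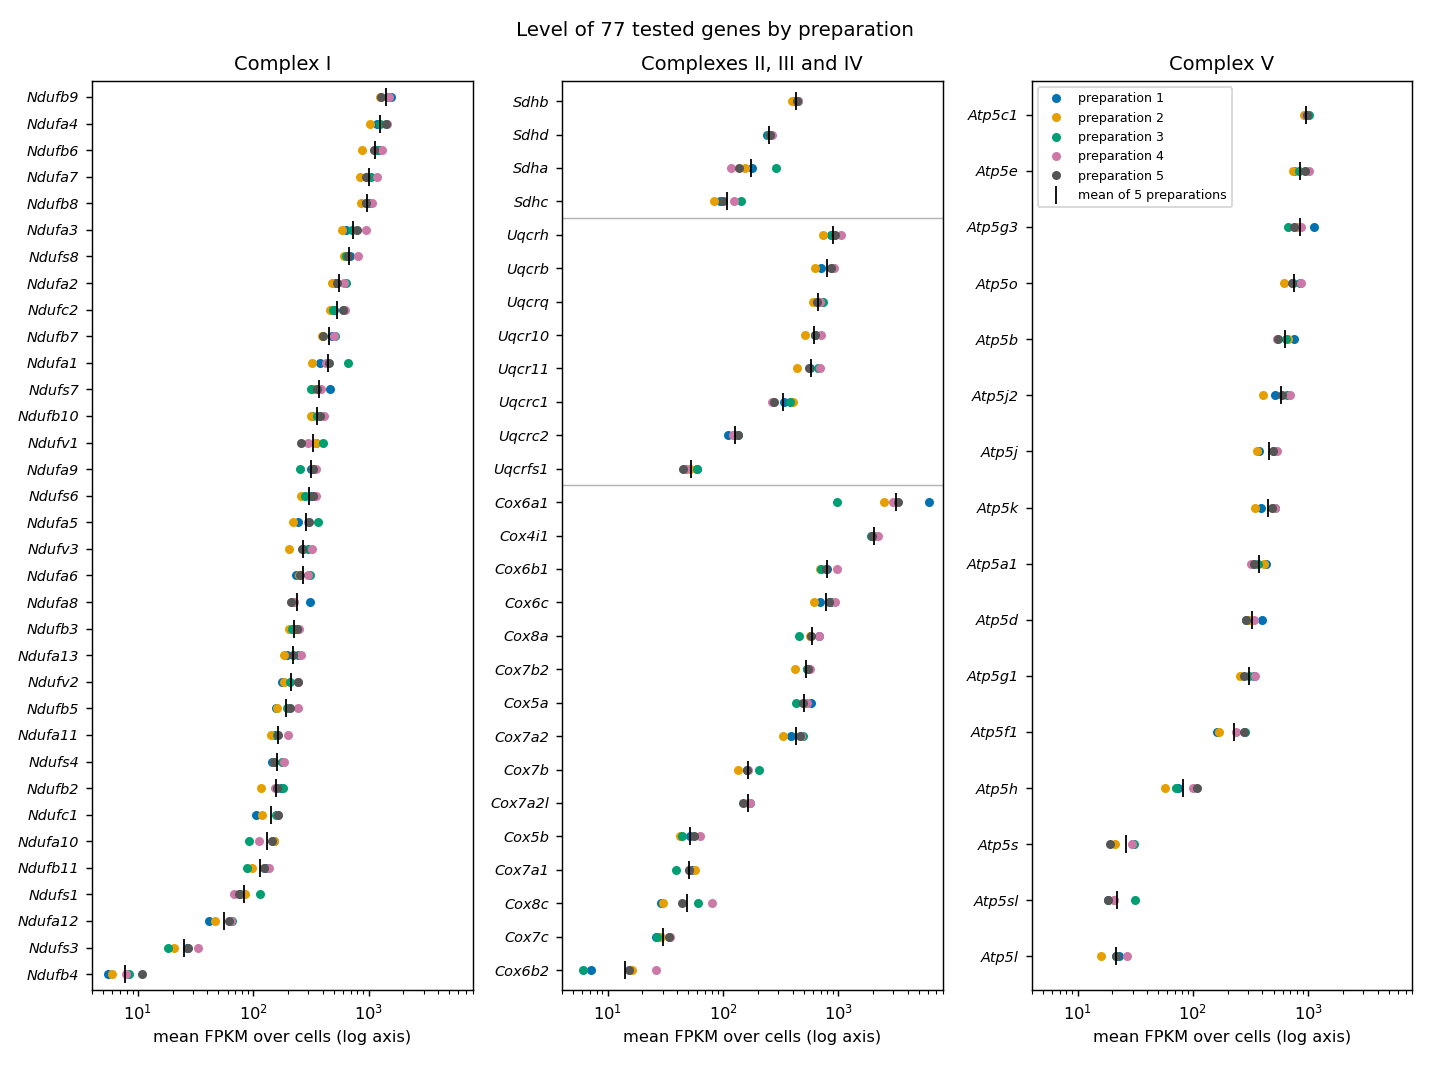
Mean FPKM over the cells of each preparation (log axis) for 77 of the 78 tested genes, ordered by level within each complex, with coloured points for 5 preparations and a black tick for their mean. Levels span from 7.75 FPKM (Ndufb4) to 3167 FPKM (Cox6a1), and the 5 points of a gene lie close together except for genes such as Cox6a1, Cox6b2 and Cox8c.

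Low levels and near-identical copies went together in part. Of 84 genes, 64 had no near-identical annotated gene, and 12 of these were below 100 FPKM. With 1 to 2 such copies were 16 genes, of which 6 were below 100 FPKM, and with 3 or more were 4 genes, of which 3 (Atp5h, Atp5l and Cox7c) were. Whether shared reads lowered these values was not tested. Exons of 26 of the 84 genes are overlapped on the opposite strand, among them Cox4i1 (by Emc8), Ndufs6 (by Mrpl36) and Cox5a (by Gm26631). The use of strand is not given in the sources used here, so these values may hold reads of the partner. Level and coding length, from 159 to 2184 bases, had a Spearman correlation of -0.21 across 78 genes, which are not independent replicates.

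Promoters from 250 bases before to 50 after the start were matched in RefSeq (GRCm38.p6) for 69 of the 84 genes. The background was 27025 genes with promoters of the same length, not limited to the genes tested here. A gene was counted where any of its promoters matched. The letters GCATGCGC are the core bound by NRF1, a regulator of respiratory genes. They were found on either strand in 10 of the 69 genes, 14.5%, against 3.05% of the background. The letters GCCATNTTG, bound by YY1, were in 12, 17.4%, against 2.90%. CCGGAAGT, bound by ETS factors such as GABP, was in 5, 7.25%, against 4.31%, and TATAAA was in 7, 10.1%, against 15.7%. Cox6a1 held the NRF1 letters, Cox7b the YY1 letters and Cox7b2 the TATA letters. The 4 searches overlap in genes such as Uqcr11 and Ndufs7, which hold more than 1 motif. A match describes letters only and does not show binding.

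The comparison of Q1 with Q4 asked whether bright and dim cells differ in these genes. No difference between Q1 and Q4 passed the test among the 78 tested genes: limma called 0 of 78, where it called 0.0765% of all 10452 genes (adjusted p under 0.05, Benjamini-Hochberg over all genes). The smallest adjusted p among them was 0.162. The fitted difference was above 0 for 40 genes and below 0 for 38, with a median of 0.01 on the log2(FPKM + 1) scale, while over all tested genes 69.5% lay above 0 and the median was 0.17. With cells scaled to 1 common 75th percentile the sign turned: the median was -0.29 with 18 of 78 above 0, where the median of all genes was 0.09. Among genes with a mean of at least 100 FPKM, the 63 of this group had a median of -0.03 with 46.03% above 0, and all 1115 had 0.13 with 65.9%. At an unadjusted p under 0.05, 4 of 78 were higher in Q1, where 10.4% of all genes were, and 4 were lower in Q1, where 1.03% of all genes were. That balance depended on the processing: the counts were 0 higher and 16 lower at a common 75th percentile (6.97% and 2.21% of all genes), 0 and 11 where FPKM were averaged before the log (5.40% and 2.86%), 2 and 12 without preparation 3 (9.29% and 1.47%), and 0 and 3 with detected genes as a covariate (2.81% and 2.57%).

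The preparations differed in direction. The median Q1 minus Q4 difference of the 78 genes was -0.22, -0.12, 0.28, -0.015 and -0.06 in preparations 1 to 5, below 0 in 4 and above 0 in preparation 3, which had the fewest detected genes. The mean of these medians was -0.03 ± 0.19 (SD, n = 5). By complex, the median fitted difference was 0.02 in complex I (35 genes, 19 above 0), 0.09 in complex II (4, 2 above), -0.15 in complex III (8, 3 above), -0.05 in complex IV (15, 7 above) and 0.02 in complex V (16, 9 above).

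The 3 genes of smallest p on the lower side were Cox4i1, Uqcrq and Ndufb10. Cox4i1 averaged 1827, 1831, 1690, 2151 and 1897 FPKM in Q1 of preparations 1 to 5, against 2239, 2079, 2222, 2544 and 2248 FPKM in Q4. Q1 was below Q4 in 5 of 5 preparations, although the highest Q1 mean exceeded the lowest Q4 mean. Over quartiles Cox4i1 averaged 1879 ± 170, 1905 ± 176, 2099 ± 169 and 2266 ± 170 FPKM from Q1 to Q4. The fitted difference was -0.26 ± 0.07 (log2, SE, limma adjusted p = 0.162, unadjusted 0.00136), and the slope per quartile step toward Q1 was -0.09 ± 0.02 (limma adjusted p = 0.117). With the number of detected genes as a covariate the difference of Cox4i1 was -0.10 ± 0.11, and at a common 75th percentile it was -0.57.

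Uqcrq, a small subunit of complex III that binds cytochrome b, averaged 541, 555, 690, 611 and 655 FPKM in Q1 of preparations 1 to 5, against 904, 679, 789, 823 and 718 FPKM in Q4. It was lower in Q1 in 5 of 5 preparations. Its difference was -0.30 ± 0.11 (limma adjusted p = 0.275). Ndufb10, an accessory subunit of the membrane arm of complex I, averaged 331 ± 66.1 FPKM in Q1 and 436 ± 95.9 FPKM in Q4. It was lower in Q1 in 5 of 5 preparations, with differences from -0.88 to -0.0062, and its fitted difference was -0.39 ± 0.18 (limma adjusted p = 0.391). None of the 3 passed, so these are directions and not calls. With detected genes as a covariate Uqcrq was at -0.36 ± 0.18 and Ndufb10 at -0.41 ± 0.28, at a common 75th percentile they were at -0.61 and -0.60, and without preparation 4 Ndufb10 was at -0.24.

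On the higher side stood Sdhc, Cox5a and Ndufa10. Sdhc averaged 117, 86.7, 123, 127 and 123 FPKM in Q1 of preparations 1 to 5, against 90.8, 85.4, 171, 120 and 91.7 FPKM in Q4. The groups overlapped, and the means of 115 ± 16.2 and 112 ± 35.7 FPKM were close. The mean of log2 values was higher in Q1 in 5 of 5 preparations, as was detection on average, at 97.1% of Q1 cells and 91.6% of Q4 cells. The fitted difference of Sdhc was 0.66 ± 0.26 (limma adjusted p = 0.321). Preparation 5 differed by 1.56 and the others by 0.025 to 0.49. Without preparation 5 the difference was 0.29, and it was 0.11 where FPKM were averaged before the log and 0.41 at a common 75th percentile. Cox5a, a matrix-facing subunit of complex IV, averaged 613, 525, 439, 561 and 580 FPKM in Q1, against 507, 460, 273, 522 and 509 FPKM in Q4.

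Cox5a was higher in Q1 in 5 of 5 preparations, with differences of 2.19 in preparation 3 and 0.19 to 0.32 in the others. Its fitted difference was 0.49 ± 0.20 (limma adjusted p = 0.330), with 0.25 without preparation 3, 0.22 where FPKM were averaged before the log and 0.21 at a common 75th percentile. Ndufa10, an accessory subunit of complex I, averaged 127 ± 40.2 FPKM in Q1 and 120 ± 69.6 FPKM in Q4. Its difference was above 0 in 3 of 5 preparations, with a range from -1.50 to 2.75 (0.86 ± 0.37, limma adjusted p = 0.362), and the fitted value was 0.38 where FPKM were averaged before the log. Detected genes were also more numerous in Q1, and with their number as a covariate the differences of Sdhc, Cox5a and Ndufa10 were 0.37 ± 0.41, 0.36 ± 0.32 and 0.040 ± 0.55 (log2, SE).

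**Figure D3:**
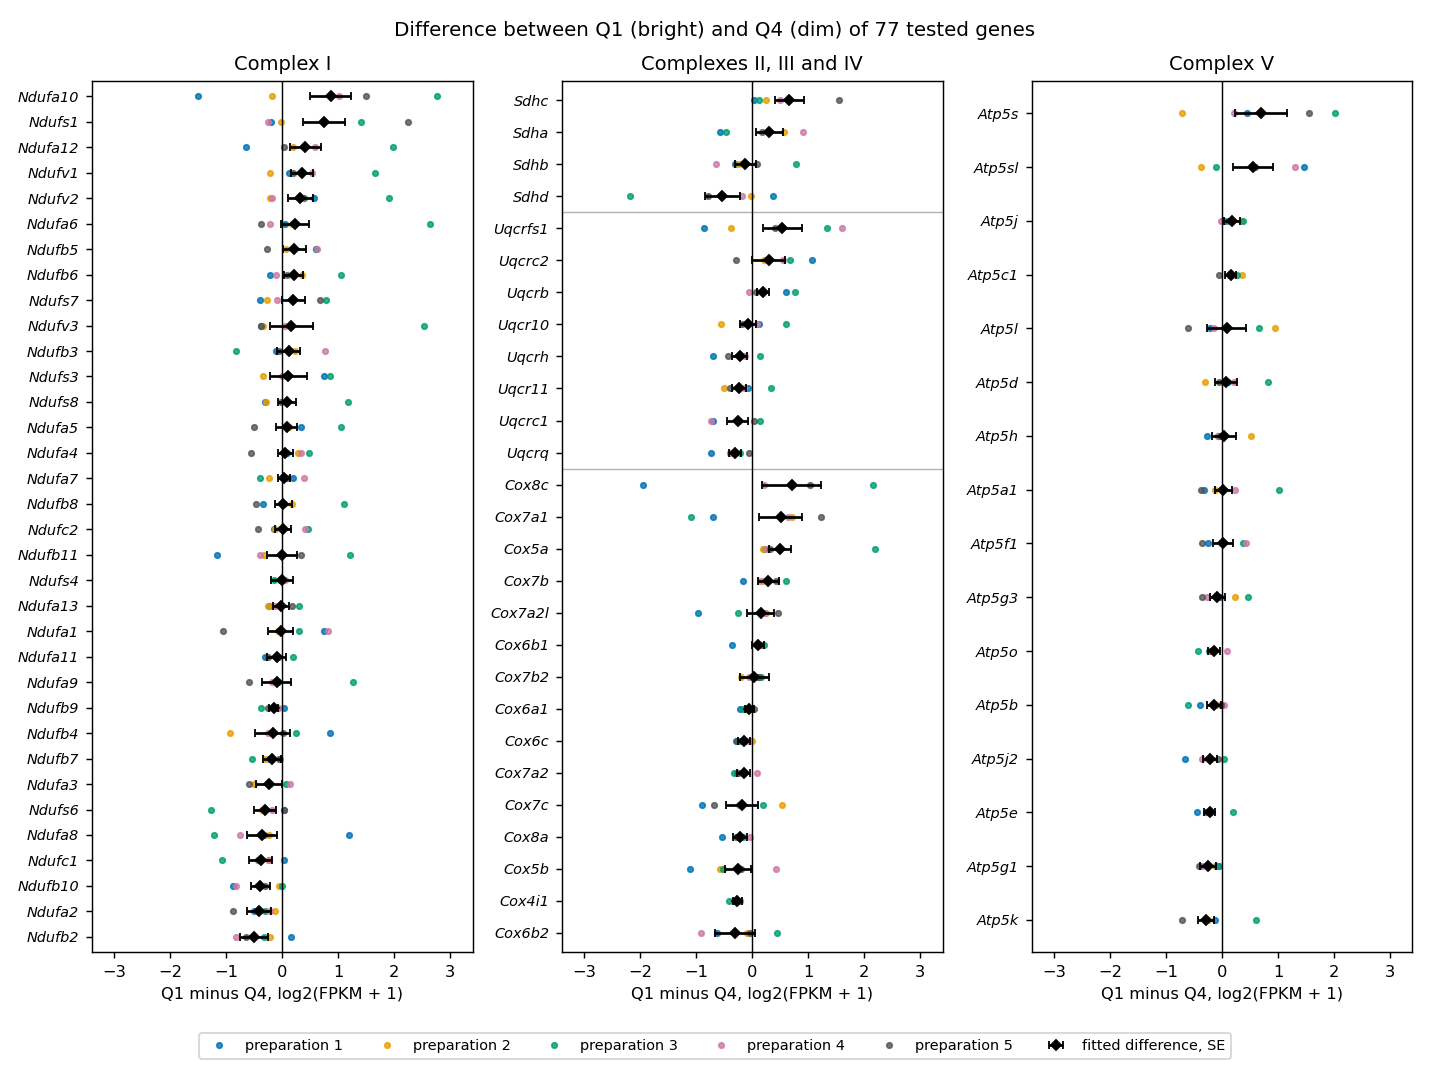
Difference between Q1 and Q4 in log2(FPKM + 1) for 77 of the 78 tested genes, ordered within each complex, with black diamonds and bars for the fitted difference and its SE and coloured points for 5 preparations. Most diamonds lie within 0.5 of the zero line, 39 above and 38 below it, and the green points of preparation 3 often lie farthest to the right.

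The trend over the 4 quartiles and the comparisons of neighbouring quartiles gave no calls among these genes. For the trend limma called 0 of 78, where it called 0.134% of all genes, with 10 at an unadjusted p under 0.05, 5 in each direction, where 12.2% of all genes were. For Q1 against Q2, Q2 against Q3 and Q3 against Q4 it called 0 of 78, where it called 0.0% of all genes each time, with 1, 2 and 4 of the 78 at an unadjusted p under 0.05, where 4.08%, 4.68% and 7.40% of all genes were. Of these comparisons of neighbours, Cox7b2 between Q2 and Q3 had the smallest unadjusted p (limma, 0.00846), with a difference of 0.72. It averaged 580 ± 90.8 FPKM in Q2 and 439 ± 29.3 FPKM in Q3. Its detection was 100% of cells in Q2 and 93.3% in Q3 on average, so cells without it weigh on the log2 difference. It did not pass (limma adjusted p = 0.974).

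As a share of the FPKM of a cell, the 84 genes held 6.49 ± 0.48%, 6.36 ± 0.57%, 6.56 ± 0.47% and 6.82 ± 0.64% from Q1 to Q4 (SD, n = 5). Q1 minus Q4 was -0.33 ± 0.26 percentage points. In preparations 1 to 5 the share was 6.90%, 5.82%, 6.25%, 6.98% and 6.52% in Q1, against 7.46%, 6.02%, 6.26%, 7.22% and 7.16% in Q4. Q1 was lower in 5 of 5 preparations, though Q1 minus Q4 was -0.0097 points in preparation 3. Without Cox6a1 the shares were 5.88 ± 0.39% in Q1 and 6.21 ± 0.45% in Q4, with a difference of -0.33 ± 0.27. The summed FPKM of a cell was also lower in Q1 in 5 of 5 preparations, with Q1 minus Q4 at -15698 ± 12674, and detected genes were higher, so these moved with the share. Their part in it was not tested.

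**Figure D4:**
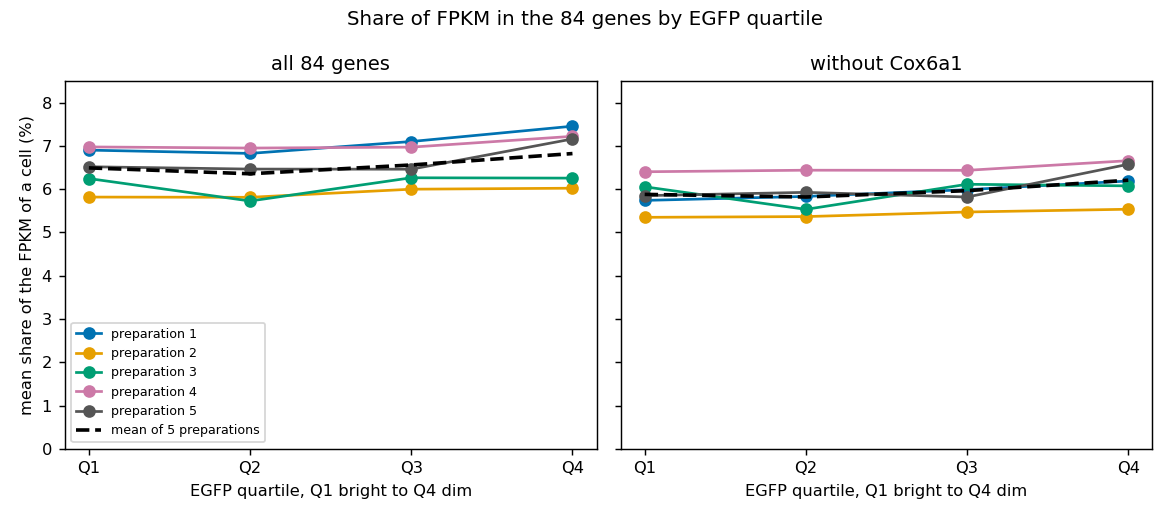
Mean share of the summed FPKM of a cell held by the 84 genes (left) and by the 83 others without Cox6a1 (right), by EGFP quartile, with 1 line for each of 5 preparations and a dashed line for their mean. The mean line runs between 6.36% and 6.82% on the left, and the points of single preparations there lie between 5.73% and 7.46%.

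More genes passed the test between preparations than between quartiles. The test over the 5 preparations called 45 of 78 genes, 57.7%, where it called 32.6% of all tested genes (limma F-test, adjusted p under 0.05). Among genes with a mean of at least 100 FPKM it called 57.1% of the 63 in this group and 48.7% of all 1115. It called 17 of 35 genes of complex I, 2 of 4 of complex II, 7 of 8 of complex III, 9 of 15 of complex IV and 10 of 16 of complex V. Of the 45, 26 had their highest mean FPKM in preparation 4 and 22 their lowest in preparation 2. These extremes are of mean FPKM and not of the log2 means that were tested. The same counts over all called genes are not given here, so the pattern may not be particular to this group. Without preparation 2 the count was 20, without preparation 4 it was 28, and it was 24 where FPKM were averaged over cells before the log was taken. The share of all genes called under these settings is not given here, so these counts cannot be set against a background. In mean FPKM the sizes were modest, with the highest preparation mean 1.46 times the lowest at the median gene. The ratio was over 2 for 5 of 78 genes, namely Cox6a1, Cox6b2, Cox8c, Ndufa1 and Sdha. The calls were made on means of log2 values, where cells without a detected value weigh more. These ratios therefore do not give the size of what was called. The 4 quartile means of a preparation come from 1 suspension, so this test sets preparations against the spread of quartile means within them. Preparations themselves were not replicated, so its p values do not measure how far repeat preparations would vary. A preparation and the run that its cells were processed in cannot be told apart.

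Cox6a1 differed most. Its mean was 6114, 2487, 971, 2982 and 3283 FPKM in preparations 1 to 5, with a highest mean 6.30 times the lowest (limma adjusted p = 1.52e-13). In preparation 1 the 26 cells lay between 4260 and 10870 FPKM with a median of 5566, and in preparation 3 the 37 cells lay between 138 and 2239 FPKM with a median of 903, so these cells did not overlap. The medians of the other preparations lay between 2376 and 2984 FPKM, and 1 cell of preparation 5 stood at 19210 FPKM. Q1 averaged 6292, 2405, 1026, 3150 and 3691 FPKM, against 7274, 2501, 1029, 3118 and 3161 FPKM in Q4, and the fitted difference was -0.05 ± 0.08. Cox4i1 averaged 2053, 1989, 1912, 2214 and 1950 FPKM, with a highest mean 1.16 times the lowest. Complex IV held 2.26%, 1.56%, 1.26%, 1.82% and 1.77% of FPKM in preparations 1 to 5, and without Cox6a1 1.14%, 1.08%, 1.08%, 1.28% and 1.16%. Over all alternatives that keep the preparations, the adjusted p of Cox6a1 was at most 0.000142.

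Ndufs6 and Uqcrfs1 came next by p. Ndufs6, a zinc-binding subunit of complex I, averaged 311, 262, 282, 349 and 331 FPKM (limma adjusted p = 0.000540), and was detected in 83.8% of the cells of preparation 3 and in 100% of the others. Uqcrfs1 averaged 59.1, 51.9, 59.7, 48.0 and 44.6 FPKM (limma adjusted p = 0.000652). Its detection was 48.7% in preparation 3 and 83.3% to 100% in the others, and its median over cells there was 0.906 FPKM with a highest cell of 730 FPKM. The mean FPKM of preparation 3 was thus not low. Both calls were lost when FPKM were averaged over cells before the log was taken (limma adjusted p = 0.948 for Uqcrfs1 and 0.144 for Ndufs6), and that of Ndufs6 also at a common 75th percentile (limma adjusted p = 0.0559).

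**Figure D5:**
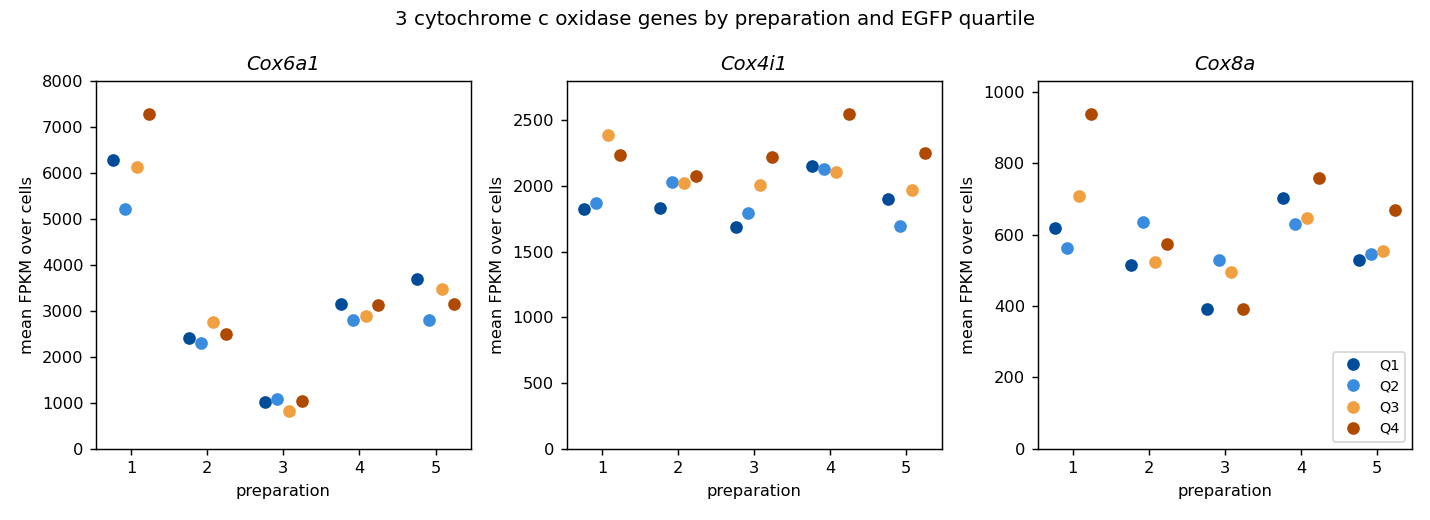
Mean FPKM over cells of Cox6a1, Cox4i1 and Cox8a by preparation, with 1 point for each of the quartiles Q1 to Q4. Cox6a1 points of preparation 1 lie above all others and those of preparation 3 below all others, while those of preparations 4 and 5 overlap. The points of Cox4i1 lie between 1690 and 2544 FPKM and those of Cox8a between 390 and 936 FPKM.

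Other genes of respiration were read from lists of assembly factors, carriers and regulators. None of these was called between Q1 and Q4 (limma, 0 in each list). At an unadjusted p under 0.05 there were 1 of 15 assembly factors of complex I, 0 of 2 of complex II, 0 of 3 of complex III, 2 of 21 of complex IV, 0 of 4 genes of ATP synthase assembly and inhibition, 4 of 19 electron and nucleotide carriers and 0 of 12 regulators of mitochondrial biogenesis, where 11.4% of all tested genes were. Their median differences were 0.21, 0.12, -0.15, 0.04, -0.05, 0.17 and 0.20, in the same order, where the median of all genes was 0.17. The gene of smallest p was Ndufaf2 for complex I (0.42 ± 0.18), Sdhaf1 for complex II (0.14 ± 0.22), Ttc19 for complex III (-0.20 ± 0.40), Higd2a for complex IV (-0.67 ± 0.25) and Usmg5, also known as a small subunit of ATP synthase, for complex V (-0.13 ± 0.33).

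Cyct led the carriers by its unadjusted p. It averaged 299, 209, 275, 298 and 287 FPKM in Q1 of preparations 1 to 5, against 194, 179, 219, 321 and 226 FPKM in Q4. Its mean of log2 values was higher in Q1 in 5 of 5 preparations, and the difference was 0.62 ± 0.22 (limma adjusted p = 0.275). Slc25a4, the heart and muscle carrier, differed more, by 1.31 ± 0.48 (limma adjusted p = 0.275). Slc25a31 differed by 0.15 ± 0.15 and Slc25a5 by 0.51 ± 0.24, and none of these carriers passed. Slc25a4 was detected in 244 of 278 cells and Cyct in 268, so cells without a value may weigh on these log2 differences. Detected genes were more numerous in Q1, and values with their number as a covariate are not given here for the carriers. Polrmt, the mitochondrial RNA polymerase, led the regulators at 0.52 ± 0.35 (limma adjusted p = 0.601), with a mean of 5.67 ± 2.05 FPKM.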

How the data were processed

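Single-cell RNA-seq values of 278 cells were used as deposited. Per the submitters' processing notes, the authors used FastQC, TopHat, Cufflinks and Picard with mm10 (GRCm38), and the deposited matrix holds 1 FPKM value per gene and cell. The unit was read from the quantifier and the values. Tool versions were not given in the sources used here. Count models were not applied. All 278 columns were used. The counts cover all members, but 1 tested gene is not reported individually here.

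The model used means over cells of log2(FPKM + 1) for the 20 combinations of preparation and quartile and was fitted by limma (version 3.58.1, R 4.3.3; trend = TRUE; data.table, version 1.17.8), with weights by cell number and preparation as a block. Genes were kept where 10% of cells or more had an FPKM of 1 or more. Tests were two-sided, adjusted by Benjamini-Hochberg over 10452 genes at 0.05. The numbers pair the means: the 30 pairs from 1 preparation had a median correlation of deviations of 0.19 and a lowest of 0.08, and other pairs a median of -0.07; each quartile of a preparation comes from 1 suspension. The highest correlation between 2 cells was 0.692, so no duplicates were merged. The fit was tested on simulated data. The planted differences were larger than the fitted Q1 minus Q4 differences given here, so recovery of differences of that size was not tested.

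The members and lists were chosen with earlier results of these data known. Named are, per complex, the 2 highest and the lowest tested gene, the isoform pairs, the 3 smallest p on each side of Q1 against Q4, the smallest p of each list, the 3 smallest p between preparations, and Atp5g1 to Atp5g3; other names were chosen after their values were seen. Alternatives were pseudocount, filter, block, covariate, scaling, weights, log of the mean, only Q1 and Q4, and leaving out each preparation. Coordinates are GENCODE M21 (GRCm38).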

Additional observations from a re-analysis of the deposited data

Results flagged for a closer look

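Of 88 sets of 5 preparation values examined for a value far from the other 4, 6 were set apart, where chance sets apart about 1 in 20. Cox5a had a Q1 minus Q4 difference of 2.19 in preparation 3, against 0.19 to 0.32 in the others. In preparation 3, Q4 held 7 cells, among them the only cell without a detected Cox5a value. Cox6b1 had a difference of -0.37 in preparation 1, against 0.10 to 0.20. Polrmt had a difference of -3.09 in preparation 1, where Q4 held 4 cells, against 0.51 to 1.30. Cox7b2 had a mean of 422 FPKM in preparation 2, against 531 to 569 FPKM. Ndufaf2 had a mean of 490 FPKM in preparation 1, against 231 to 276 FPKM. Complex II held 0.206% of FPKM in preparation 3, against 0.171% to 0.176% in the others.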

How the results depend on the processing

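No alternative called any of the 78 genes (83 without a filter) between Q1 and Q4 or along the trend. Without the replicate block the count was 0 as well and the median difference 0.0013. The median of these genes was -0.29 when cells were scaled to 1 common 75th percentile, where the median of all genes was 0.09. Leaving out each preparation gave medians from -0.08 (without preparation 3) to 0.04, and over the other alternatives the median lay between -0.10 and 0.04. Over all genes 8 were called in that comparison, and 0 without the filter, without the replicate block, with the covariate, with unweighted means, with the log of the mean and with only Q1 and Q4; leaving out each preparation gave 0 to 11. The 3 genes of smallest p on each side kept their direction in the 15 alternatives. They were picked by p from the same cells, so a kept direction is partly fixed by that choice. Ndufa10 was at 0.040 ± 0.55 (log2, SE) with the covariate. The difference of Cox7b2 was 0.04, and -0.64 with detected genes as a covariate, -0.28 at a common 75th percentile, -0.073 with the log of the mean, and -0.011 to 0.10 when each preparation was left out. That of Cox7b was 0.29, and -0.15 with the covariate and -0.0093 at a common 75th percentile. The cause was not tested. Between preparations 45 genes were called, 24 with the log of the mean, and 20 (without preparation 2) to 43 when each was left out. These alternatives were chosen after seeing the data, and the share of all genes called in each is not given here. Depth is an estimate, so a value of 0 in a cell cannot be told from a missed transcript.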
